A study of Arabidopsis thaliana with 6 samples.

Results

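Among the 31109 genes with a counted window of 500 bases past the 3′ end of a transcript, 119 had a window that was depleted in cpsf30-1 seedlings of Arabidopsis thaliana. A window is named here by the gene that ends before it, and its level is given in CPM, its read count scaled to a fixed total of reads in the same deposited table (counts per 1e6). Members were selected on these CPM values: a window was a member when it held at least 2 CPM in both wild-type (WT) and both nerd-1 libraries, and when both cpsf30-1 libraries lay at or below 0.5 times the lowest of those 4 values. For genes with several transcripts the one with the lowest isoform number was taken. Of all windows, 9294 met the 2 CPM floor, so the 119 members were 1.28% of those that could qualify. With 5 libraries the same limits gave more windows, 228 when WT replicate 2 was left out, and 290 or 256 when cpsf30-1 replicate 1 or 2 was. The selection used the counts of all 6 libraries, so the levels of the members in cpsf30-1 are a description of what was selected, with no test.

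RNA came from seedlings aged 9 days in the Col-0 ecotype, in 3 groups of 2 libraries each, namely WT, the mutant nerd-1 and the mutant cpsf30-1, with no treatment named for any group. The poly(A) fraction was made into stranded libraries and sequenced as read pairs. Neither the number of plants pooled nor whether replicates came from separate plantings is stated, so every p-value below measures the spread between these libraries, which may be technical. The read totals of the tables ran from 11793952 to 18569498, so that 2 CPM stood for 23.6 to 37.1 counts and 3 counts, the limit that a count of 0 allows, stood for 0.162 to 0.254 CPM. These limits cover counting error only. In bulk seedling RNA, fewer cells of a type and less RNA per cell cannot be told apart. Windows past 15 of 20 genes of the photosynthetic light reactions met the 2 CPM floor, beside 9294 of all 31109 windows. Many windows of that list hold another gene by the reference, so this is no measure of green tissue. The window past transcript 2 of CPSF30 held 43 and 49 counts (WT), 66 and 58 counts (nerd-1) and 1 and 0 counts (cpsf30-1). The window past its transcript 1 held 4, 2, 3, 4, 4 and 16 counts in the same order, and the window past NERD held 0 counts except for 3 in cpsf30-1 replicate 1.

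CPSF30 is a zinc-finger subunit of the complex that cleaves a nascent messenger RNA and adds its poly(A) tail. With its partner subunits it reads the AAUAAA-type signal that lies a short way before the cleavage site, and in plants a longer form of the protein also carries a YTH domain that binds N6-methyladenosine in RNA. When an upstream site is passed over, the polymerase can run on and use a site farther along, so RNA in the stretch past an annotated end can come from a longer transcript of the gene upstream. It can equally come from a neighbouring gene on either strand, because Arabidopsis genes lie close together. NERD is a nuclear protein of the small-RNA-guided pathway that silences repeats and some genes by DNA methylation.

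The sequences around the annotated ends of 5 members are shown because these windows carry the results below: the lowest ratio of all members, an isolated window, and 3 windows beside other transcripts or genes. Each is written 5′ to 3′ on the strand of the gene, with the last 20 bases of the transcript in lower case and the first 10 bases of the window in capitals.
PDF1.2b: cattatacatactattttttAAGGACATAG
AT5G37890: gaatacaactaagctttcttTTGTTTTAGT
SDH1-2: ttttccgtaaagcaaaccgcCTAGCTTTAA
SCD1: cctgtcaaaatttagaaatcCAGATATTTG
EGY3: cttgtggaatttgttttatcATCTTCTAGT
They lie at chr2:11089786-11089815 on the plus strand, chr5:15089668-15089697 on the minus strand, chr2:7997334-7997363 on the minus strand, chr1:18139174-18139203 on the minus strand and chr1:6149929-6149958 on the minus strand, in the RefSeq sequence of build TAIR10.1. In 10 other members the hexamer AATAAA lies in the last 50 bases before the annotated end, and 4 of these are shown. Some of those not shown have it closer to the end, such as OXA1 at 1 base. Here the capitals mark that hexamer in a stretch of 30 bases.
AT3G05725: tgttttttgtaattAATAAAcactacaatt
RPP4: cattacattcttAATAAAgtcaatacattc
AT5G05598: gtccttttatcccaagaaAATAAAaattaa
RING1: tacagtatctgaAATAAAtcgaaactttca
These stretches are chr3:1693349-1693378 (plus), chr4:9488469-9488498 (minus), chr5:1672033-1672062 (plus) and chr5:3268771-3268800 (plus), and from the hexamer to the annotated end there were 10, 15, 6 and 25 bases. The last 2 genes were chosen after their values were seen.

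AATAAA, the DNA form of the classical signal, was counted before and inside the depleted windows. On the gene strand it was found in the last 50 bases of 10 of 118 members with a reference position (8.47%) and of 896 of 9207 windows at the 2 CPM floor (9.73%). On the other strand the same 50 bases held it in 13 members (11.0%) and in 6.65% of windows at the floor. Within the 500 bases of the window it was found on the gene strand in 34 members (28.8%) against 35.8%, and on the other strand in 35 members (29.7%) against 30.5%. TGTA, the core of the far upstream element of plant ends, was found on the gene strand of the last 50 bases in 38 members (32.2%) against 26.7%, and on the other strand in 16.1% against 23.2%. GGAC, a core of the methylated RNA motif, was found there on the gene strand in 9 members (7.63%) against 4.93%, and on the other strand in 6.78% against 5.20%. These are letter matches, of which TGTA and AATAAA can share 1 base, no test was run on them, and the deposited gene models can end at other bases than the reference. The median GC content of the window was 38.3% in members and 38% in all windows at the floor.

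The members spanned a wide range of levels. The mean WT level ran from 2.28 to 1171 CPM with a median of 9.62, the mean nerd-1 level from 2.36 to 1220 CPM with a median of 9.23, and the mean cpsf30-1 level from 0.101 to 538 CPM with a median of 2.72. The mean of the 4 WT and nerd-1 libraries was 2.12 to 53.4 times that of cpsf30-1, with a median of 3.59. It was at least 3 times higher in 83 members, at least 5 times in 30 and at least 10 times in 7. In 57 members the mean of those 4 libraries was at least 10 CPM and in 11 at least 100 CPM, whereas 29 members lay under 5 CPM and 21 had 10 counts or fewer in a cpsf30-1 library. No member had a count of 0, and the lowest count was 1. Replicates differed by more than 2 times in 9 members in cpsf30-1, in 7 in WT and in 1 in nerd-1.

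**Figure D1:**
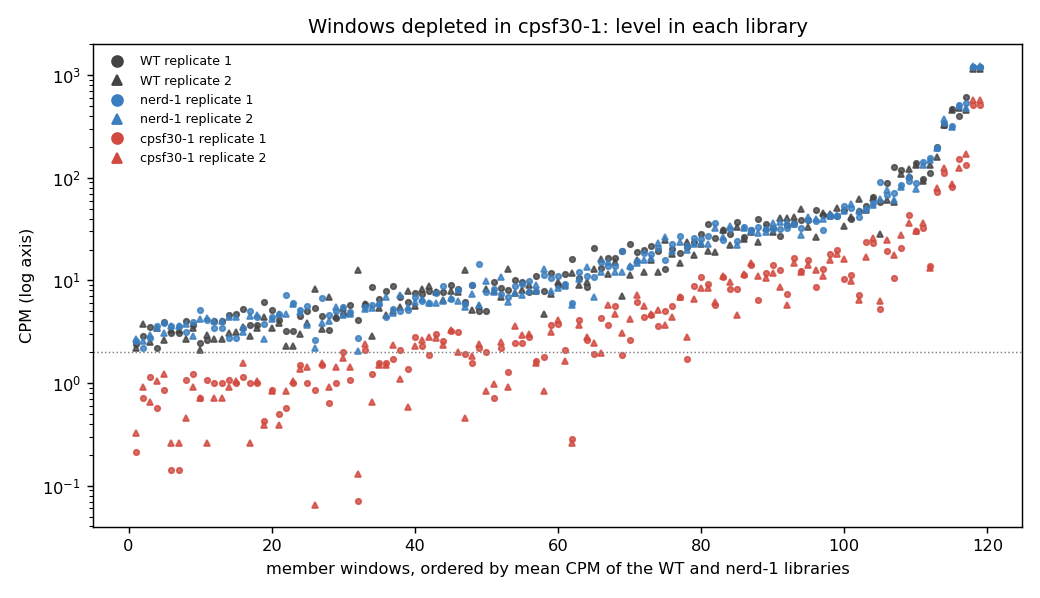
Level of each of the 119 depleted windows in each of the 6 libraries, in CPM on a log axis, with windows ordered by the mean of the WT and nerd-1 libraries and the dotted line at 2 CPM. Circles and triangles are replicates 1 and 2; the cpsf30-1 points lie below all WT and nerd-1 points of the same window, as the selection requires.

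Members were spread over all 5 chromosomes, with 32, 23, 16, 18 and 30 on chromosomes 1 to 5, which was between 0.865% (chromosome 3) and 1.72% (chromosome 2) of the windows at the floor. They are not 119 independent places. In 6 pairs the windows shared bases or had the same counts, and 3 of these pairs, GEX3 with RTFL18, AT4G36790 with AT4G36791, and BZIP53 with AT3G62422, had identical counts in every library. Joining such windows left 113 places, and joining also those that overlap the same gene left 109. Of the member genes 115 are protein coding and 3 are pseudogenes in the reference, and AT3G62422 has no position there. The product of 16 is named only as an uncharacterized protein.

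The member genes with defence roles included the window with the lowest ratio. PDF1.2b encodes an antifungal plant defensin of the jasmonate and ethylene response. Its isolated window, chr2:11089806-11090305 on the plus strand, held 4.07 and 12.7 CPM (WT), 2.77 and 2.03 CPM (nerd-1) and 0.0716 and 0.130 CPM (cpsf30-1). The cpsf30-1 libraries were lowest and the WT libraries highest, with WT replicate 2 far above the rest. The cpsf30-1 values rest on 1 and 2 counts. The pooled ratio of the other 4 libraries to cpsf30-1 was 59.6, with an exact 95% counting interval of 20.2 to 290.2. Without WT replicate 2 it was 28.5, with an interval of 9.51 to 140.3, and the ratio of mean CPM was 29.3 in place of 53.4. These intervals cover counting error only and, since the selection used the same counts, are no test. PDF1.2b was the one member among the 24 genes of the jasmonate and defensin list, of which 10 were tested in cpsf30-1 against WT and 1 was called, PDF1.2b itself, in a contrast that the selection used. In the salicylic acid defence list 6 of 15 genes were tested, and none was a member. The one called was past SAG101, a lipase-like partner of EDS1 in immune signalling, with a log2 fold change of -1.07 (adjusted p = 0.0295, edgeR), a call kept by 1 of the 6 fits that leave out 1 library, with adjusted p between 0.0330 and 0.133. Over all tested windows 3.02% were called lower and 7.6% higher.

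RPP4 encodes an intracellular receptor of the TIR-NBS-LRR class that recognises downy mildew. Its window, chr4:9487966-9488465 on the minus strand, held 57.7 and 28.1 CPM in the WT libraries, 91.3 and 62.2 CPM in nerd-1 ones and 5.22 and 6.31 CPM in cpsf30-1 ones. The mean of the 4 other libraries was 10.4 times that of cpsf30-1, and WT replicate 2 was the lowest of the 4. The window lies on 432 exon bases of AT4G16870, on the same strand. PGIP1, which encodes an inhibitor of fungal polygalacturonase, was picked after its values were seen. Its window held 127 and 58.6 CPM (WT), 70.5 and 60.2 CPM (nerd-1) and 10.6 and 17.8 CPM (cpsf30-1), and it runs into PGIP2 on the same strand. The window past AT2G39040, a peroxidase gene, held 5.34 and 8.19 CPM in the WT libraries, 2.62 and 2.18 CPM in nerd-1 ones and 0.859 and 0.0650 CPM in cpsf30-1 ones. Its cpsf30-1 replicates differed more than 10 times, the lower of them resting on 1 count, and the window covers 464 exon bases of NATA1, an acetyltransferase gene, on the other strand.

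Members past genes of mitochondrial and chloroplast proteins included SDH1-2 and EGY3. The window past SDH1-2, which encodes the flavoprotein subunit of succinate dehydrogenase, is chr2:7996844-7997343 on the minus strand. It held 112 and 134 CPM (WT), 156 and 151 CPM (nerd-1) and 14.0 and 13.1 CPM (cpsf30-1). Replicates lay close together in all 3 groups, and the 4 higher libraries averaged 10.2 times the cpsf30-1 level. The window contains 304 exon bases of GUT15, a gene on the same strand. The window past EGY3, which encodes a chloroplast membrane protein related to the site-2 protease EGY1, held 465 and 453 CPM in the WT libraries, 320 and 314 CPM in nerd-1 ones and 81.6 and 86.9 CPM in cpsf30-1 ones. The 3 groups did not overlap, with nerd-1 between WT and cpsf30-1. Here and in the members below, the selection itself placed cpsf30-1 under the other groups, so only WT against nerd-1 could vary. Those 2 groups did not overlap in 22.8% (nerd-1 lower) and 21.6% (nerd-1 higher) of windows at the floor. A long noncoding RNA, AT1G05347, covers the EGY3 window on the same strand, and AT1G17860 covers it on the other.

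In several of the most abundant windows a gene of photosynthesis or metabolism lies inside the counted bases. The window past BZIP53, a gene for a bZIP transcription factor, held 1194 and 1147 CPM (WT), 1211 and 1230 CPM (nerd-1) and 509 and 567 CPM (cpsf30-1). It was the highest member and one of the least depleted, at 2.22 times, and it covers 495 exon bases of CP12-2, a regulator of the Calvin cycle, on the other strand. The window past AT1G76110, an HMG-box protein gene, held 608 and 456 CPM in the WT libraries, 539 and 483 CPM in nerd-1 ones and 133 and 170 CPM in cpsf30-1 ones. It lies on 397 exon bases of PETE1, a plastocyanin gene, on the same strand. The window past AT4G14900, a FRIGIDA-like gene, held 327 and 324 CPM (WT), 343 and 376 CPM (nerd-1) and 111 and 124 CPM (cpsf30-1), and it lies on 315 exon bases of OASA1, a cysteine synthesis gene, on the same strand. How much of these counts belongs to the gene before the window was not tested.

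AT3G05725, whose product is a DUF3511 protein, had the abundant window whose transcript end carries AATAAA. The window also contains 255 exon bases of AT3G05727 on the same strand. It held 402 and 473 CPM in the WT libraries, 516 and 505 CPM in nerd-1 ones and 153 and 123 CPM in cpsf30-1 ones, so the 4 higher libraries averaged 3.44 times the mutant. The uncharacterized gene AT4G13572 had 16.2 and 11.8 CPM (WT), 5.99 and 5.79 CPM (nerd-1) and 0.286 and 0.260 CPM (cpsf30-1), a mean ratio of 36.4. Its groups did not overlap, and nerd-1 lay between the others. The cpsf30-1 values rest on 4 and 4 counts. A long noncoding RNA, AT4G06115, has 211 exon bases in this window on the other strand. The neighbouring member AT4G13575 had 37.0 and 33.0 CPM in the WT libraries, 24.0 and 22.3 CPM in nerd-1 ones and 8.30 and 4.62 CPM in cpsf30-1 ones, with the groups in the same order.

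The convergent genes GEX3, named for its expression in gametes, and RTFL18, of a family of small growth peptides, shared 220 window bases. Their identical values were 3.05 and 3.28 CPM (WT), 3.59 and 3.61 CPM (nerd-1) and 0.143 and 0.260 CPM (cpsf30-1), so the WT and nerd-1 libraries averaged 16.8 times the mutant. The window past AT1G20380, a prolyl oligopeptidase gene, held 6.19 and 4.36 CPM in the WT libraries, 3.74 and 2.71 CPM in nerd-1 ones and 0.429 and 0.390 CPM in cpsf30-1 ones. The window past AT1G57640 held 4.07 and 3.82 CPM (WT), 4.72 and 4.66 CPM (nerd-1) and 0.501 and 0.390 CPM (cpsf30-1). Both of the last windows have a stretch of at least 100 bases with a copy of at least 95% identity elsewhere in the genome, so reads could be placed at either copy and their counts are uncertain. The same held for AT1G03495, AT2G23700, AT4G03635, AT4G13575, AT5G50665, HEN2 and LpxC4, which made 9 of 118 members (7.63%) against 291 of 9207 windows at the floor (3.16%). The whole windows of AT5G50665 and LpxC4 were repeated with 100% identity.

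**Figure D2:**
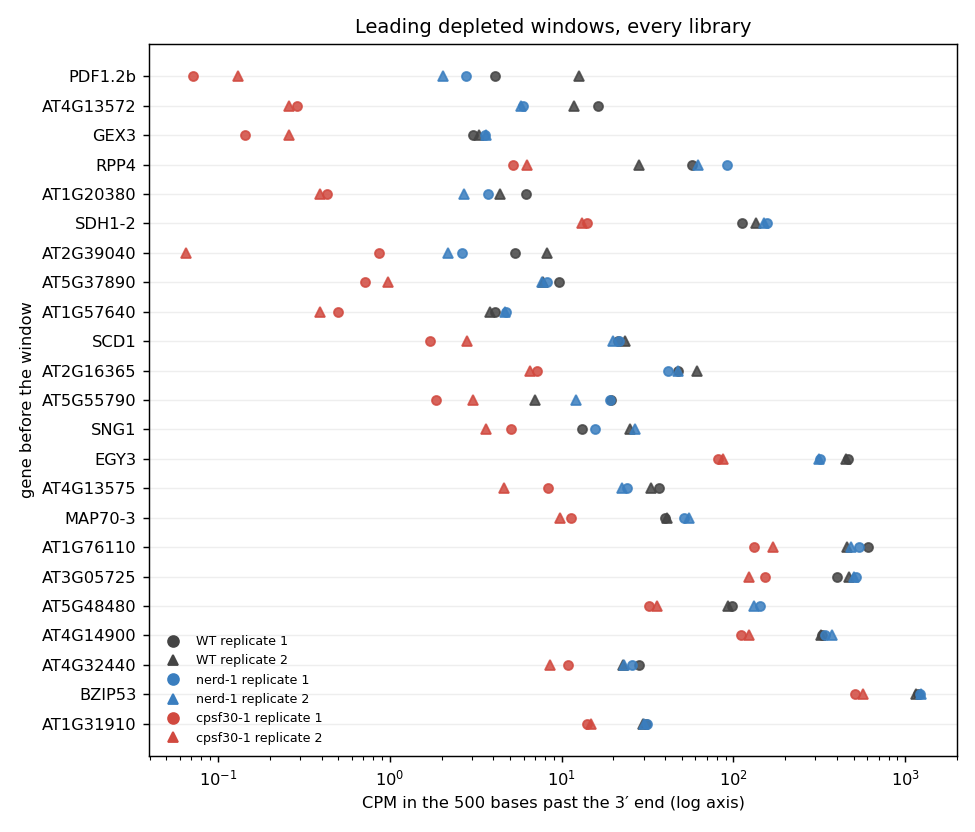
Level in each library, in CPM on a log axis, of the windows named for the lowest ratios, the highest levels, isolation or a separate isoform window, with the largest ratio at the top. Black, blue and red points are WT, nerd-1 and cpsf30-1 libraries; the distance from red to the other colours shrinks from PDF1.2b at the top to AT1G31910 at the bottom, where it is 2.12 times.

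By the reference, 15 of 118 members (12.7%) were isolated, with no other gene in the window, against 493 of 9207 windows at the floor (5.35%). In 56 members (47.5%, against 59.4%) the only other genes lay on the other strand, and in 47 (39.8%, against 35.3%) the window held a gene on the same strand. A pseudogene lay in the window of 9 members (7.63%) against 0.923% of windows at the floor, and a long noncoding RNA in 10 (8.47%) against 5.55%. In 24 members (20.3%) against 9.03% the window overlapped a gene that had no window of its own among those analysed here. These shares carry no test, and class was set by position alone because the strand setting of the counting is not given in the sources used here.

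**Figure D3:**
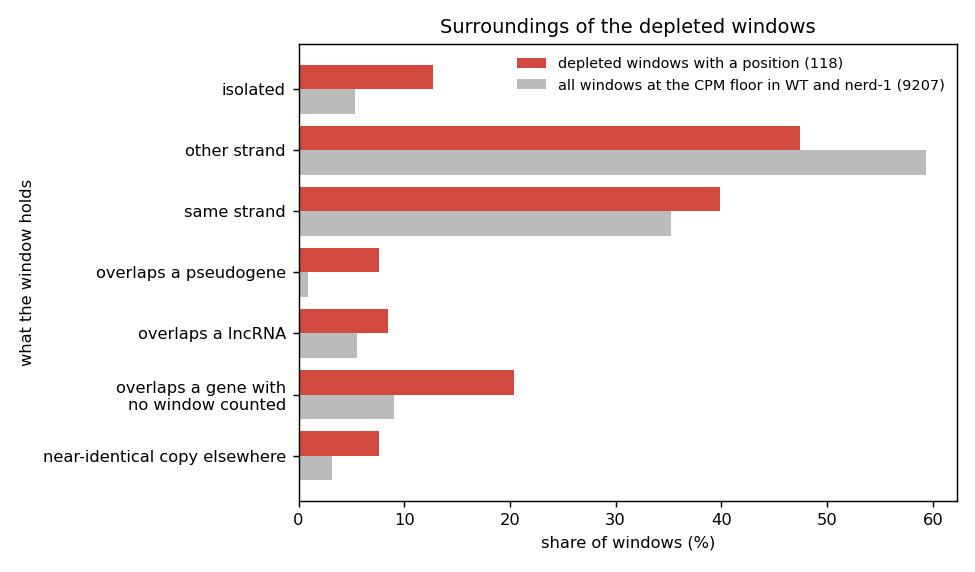
Share of windows, in percent, with each kind of surrounding in the reference annotation, for depleted windows (red) and for all windows at the 2 CPM floor in WT and nerd-1 (grey). The red bar is longer than its grey partner for isolated windows, 12.7% against 5.35%, and overlap with a gene without a window of its own, 20.3% against 9.03%.

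In the isolated windows no other annotated gene lay in the counted bases. The most abundant was past AT5G48480, a gene of the glyoxalase I family, at chr5:19646841-19647340 on the plus strand. It held 97.5 and 92.7 CPM in the WT libraries, 142 and 132 CPM in nerd-1 ones and 32.1 and 36.0 CPM in cpsf30-1 ones, so the 3 groups did not overlap and nerd-1 was highest. The window past SNG1, which encodes the sinapoyltransferase that makes sinapoylmalate, held 13.1 and 25.0 CPM (WT), 15.7 and 26.8 CPM (nerd-1) and 5.08 and 3.64 CPM (cpsf30-1). The WT and nerd-1 ranges overlapped, and replicate 2 was the higher one in both. AT5G37890, a gene for a RING and TRAF-like domain protein, had 9.67 and 7.81 CPM in the WT libraries, 8.24 and 7.67 CPM in nerd-1 ones and 0.716 and 0.975 CPM in cpsf30-1 ones, a mean ratio of 9.87. The window past AT1G31910, a GHMP kinase family gene, held 31.0 and 29.8 CPM (WT), 31.2 and 30.1 CPM (nerd-1) and 14.0 and 14.8 CPM (cpsf30-1). That was the smallest mean ratio of all members, at 2.12. Transcripts 1 and 2 of AT1G31910 had identical counts although their reference ends lie 2071 bases apart. Which bases were counted there, and whether they are isolated, is therefore uncertain.

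Other isolated windows overlapped exons of a longer transcript of their own gene. They included the Tudor-like RNA-binding protein gene AT4G32440, with 28.2 and 22.7 CPM in the WT libraries, 25.5 and 22.9 CPM in nerd-1 ones and 10.9 and 8.52 CPM in cpsf30-1 ones. The window past AT5G55790 held 19.2 and 7.0 CPM (WT), 19.2 and 12.2 CPM (nerd-1) and 1.86 and 3.06 CPM (cpsf30-1), with WT replicate 2 the lowest of the 4 higher libraries. Isolated windows with no exon of their own gene either made up 11 of 118 members (9.32%) against 3.79% of windows at the floor. The median ratio of the 4 higher libraries to cpsf30-1 was 4.62 in the 15 isolated members, 3.55 in the 56 with genes on the other strand only, and 3.45 in the 47 with a gene on the same strand.

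Within SCD1, which encodes a DENN-domain protein needed for cytokinesis of stomatal guard mother cells, the windows past other transcript ends were less different. The member window, chr1:18138684-18139183 past transcript 1, held 21.3 and 23.5 CPM in the WT libraries, 21.6 and 19.8 CPM in nerd-1 ones and 1.72 and 2.80 CPM in cpsf30-1 ones, a mean ratio of 9.55. Past transcript 3, which ends 1214 bases upstream, the window held 24.3 and 27.7 CPM (WT), 28.1 and 27.7 CPM (nerd-1) and 22.6 and 22.1 CPM (cpsf30-1). Past transcript 2, which ends 2322 bases upstream, it held 21.1 and 19.8, 20.5 and 18.0, and 16.2 and 14.7 CPM in the same order. Both windows stop short of the annotated end of transcript 1. They lie within the span of that longer transcript and may count its reads, so they need not measure RNA past an end. In these 2 windows, which the selection did not use, the cpsf30-1 libraries were also lowest, but the log2 fold changes against WT were -0.24 and -0.42 with adjusted p = 0.515 and 0.235 by edgeR's quasi-likelihood test with Benjamini-Hochberg adjustment over 19294 transcript windows. That test called 3.36% of all transcript windows lower and 7.87% higher.

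The window of the next gene but one to SCD1 was a member as well. AT1G49030, a PLAC8 family gene on the plus strand, had 34.7 and 40.3 CPM in the WT libraries, 32.3 and 37.3 CPM in nerd-1 ones and 7.44 and 5.79 CPM in cpsf30-1 ones. Its window and that of SCD1 share no bases, but both overlap the gene AT1G49032 that lies between them, on its own strand and on the other strand respectively. The window past AT1G49032 itself held 9.50 and 12.5 CPM (WT), 6.96 and 6.99 CPM (nerd-1) and 9.59 and 7.02 CPM (cpsf30-1), where cpsf30-1 lay within the range of the other groups (adjusted p = 0.344 against WT, edgeR). By the reference AT1G49032 ends at base 18139131, inside the SCD1 member window. The window past it therefore shares bases with that member and runs on into SCD1 on the other strand, so it is not independent of SCD1. These 2 genes were picked after their values were seen.

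Across all members, 6 windows past another transcript of the gene shared no reference base with the member window, and 5 of these could be tested. By edgeR 2 were called lower, those of AT1G31910 and of MAP70-3, a microtubule-associated protein gene, but their counts were identical to the member window, so they hold the same reads and the deposited models differ there from the reference. Without them 0 of 3 were called lower by edgeR, with 1 at an unadjusted p under 0.05, and 0 by DESeq2. The tested ones were the pair of SCD1 and that of AT4G32440, with a log2 fold change of -1.30 and adjusted p = 0.169. In the other member genes with several positioned transcripts the windows shared bases. Not all of these repeated the depletion. ABF2 transcript 2, sharing 500 bases, held 30.3 and 15.1 CPM (WT), 40.5 and 27.2 CPM (nerd-1) and 24.3 and 37.1 CPM (cpsf30-1). AT3G48070 transcript 2, sharing 466 bases, held 2.97 and 4.15, 1.12 and 1.95, and 2.58 and 2.80 CPM in the same order. Apart from ABF2 transcript 2, every tested window that shared bases had a negative log2 fold change against WT. SNG1 has 5 other transcripts whose windows share 296 to 398 bases with the member, and that of AT1G15120 transcript 2 shares 199. The counts of AT1G15120 transcript 2 and of 4 of those SNG1 transcripts were also identical to the member window although the reference ends differ. The main window of MAP70-3 held 39.9 and 41.0 CPM in the WT libraries, 51.3 and 55.2 CPM in nerd-1 ones and 11.4 and 9.82 CPM in cpsf30-1 ones. The F-box gene AT2G16365 held 47.4 and 61.6, 41.6 and 47.8, and 7.23 and 6.50 CPM in the same order, and its separate window was too low to be tested.

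Windows of genes beside the members were also compared. There were 200 that are not members and share no bases with the member they were taken beside. By the reference those past AT1G49032, AT1G15125, AT1G19396 and AT1G19397 share bases with another member, so the selection may have used part of their reads. Of the 200 windows, 115 could be tested in cpsf30-1 against WT. By edgeR 8 were called lower (6.96%) and 8 higher (6.96%), where the same test called 3.02% of all 14209 tested windows lower and 7.6% higher. Around the other windows at the floor 2.60% of 8284 neighbours were called lower and 7.05% higher. The median log2 fold change was -0.35 around members and -0.03 around the others. Leaving out a single library changed the count called lower from 8 to between 0 and 3, so that 8 is not a stable count. It was 3 without either WT replicate, 0 without cpsf30-1 replicate 1, and 1 without cpsf30-1 replicate 2, nerd-1 replicate 1 or nerd-1 replicate 2. It was also 1 when only the 4 libraries compared were fitted, and 18 with no filter on low counts. The count called higher was no more stable, at 2 without either WT or either nerd-1 replicate, 1 without either cpsf30-1 replicate, and 2 when only the 4 libraries compared were fitted.

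Beside the EGY3 window, 2 neighbouring windows were higher in cpsf30-1. Past AT1G17860, the gene that covers all 500 bases of the EGY3 window on the other strand, the window held 8.90 and 11.4 CPM (WT), 8.69 and 7.74 CPM (nerd-1) and 38.8 and 33.9 CPM (cpsf30-1). It rose by 1.85 on the log2 scale against WT (adjusted p = 0.00652, edgeR), and it was called in all 6 fits that leave out 1 library, with adjusted p between 0.00691 and 0.0418. The window past BTF3, the next gene upstream on the strand of EGY3, held 12.7 and 10.1 CPM in the WT libraries, 14.2 and 8.50 CPM in nerd-1 ones and 39.3 and 38.6 CPM in cpsf30-1 ones. Its log2 fold change was 1.80 (adjusted p = 0.0110, edgeR), and 4 of the 6 fits called it, with adjusted p between 0.0289 and 0.0641. By the reference AT1G17860 runs through the whole EGY3 window, so the window past it begins on the side of the EGY3 gene. Whether its reads came from EGY3 itself was not tested. At this locus the EGY3 window was depleted while the windows past AT1G17860 and BTF3 were higher, in the same libraries. These and the neighbours named next were chosen after their values were seen.

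SDC, an F-box gene kept silent in many tissues by DNA methylation, and STY8, a kinase gene, flank AT2G17695, and both of their windows were members. The window past SDC held 103 and 121 CPM (WT), 92.5 and 104 CPM (nerd-1) and 43.6 and 36.5 CPM (cpsf30-1). The window past STY8 held 52.6 and 48.1, 49.8 and 49.8, and 23.6 and 17.0 CPM in the same order. AT2G17695 fills 500 exon bases of the first on the other strand and 252 of the second on its own strand. The window past AT2G17695 itself held 1.36 and 1.24 CPM in the WT libraries, 1.35 and 1.50 CPM in nerd-1 ones and 3.86 and 5.33 CPM in cpsf30-1 ones, a log2 fold change of 1.85 with adjusted p = 0.0277 (edgeR). No fit that leaves out 1 library called it, with adjusted p between 0.0722 and 0.163. By the reference AT2G17695 runs through the whole SDC window, so the window past it begins on the side of the SDC gene. Whether its reads came from SDC itself was not tested.

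Past AT4G16870, whose exons lie in the RPP4 window, the level was also lower in cpsf30-1, at 6.30 and 4.94 CPM against 15.3 and 12.1 in WT and 15.1 and 16.1 in nerd-1. The log2 fold change against WT was -1.26 with adjusted p = 0.0160 (edgeR), and 4 of 6 fits that leave out 1 library called it, with adjusted p between 0.0217 and 0.0944. The gene after SNG1, scpl10, another serine carboxypeptidase-like gene, had a window with 18.7 and 16.3 CPM (WT), 18.0 and 20.7 CPM (nerd-1) and 35.0 and 35.2 CPM (cpsf30-1). That is a log2 fold change of 1.03 with adjusted p = 0.0297 (edgeR), and no fit that leaves out 1 library called it, with adjusted p between 0.0641 and 0.152. Past PETE1, which lies in the AT1G76110 window, the log2 fold change was -0.61 (adjusted p = 0.507, edgeR), turning to 0.084 without WT replicate 1, and past OASA1, in the AT4G14900 window, it was -0.36 (adjusted p = 0.312, edgeR).

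**Figure D4:**
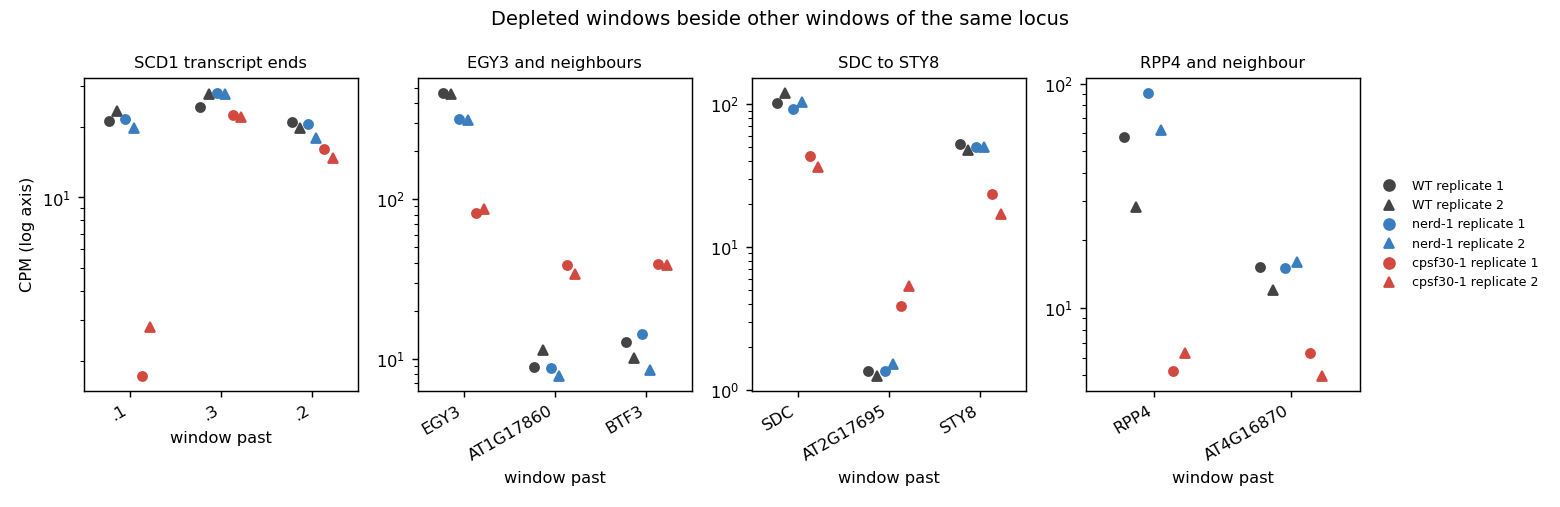
Level in each library, in CPM on a log axis, of depleted windows and of other windows of the same place: 3 transcript ends of SCD1, EGY3 with AT1G17860 and BTF3, SDC and STY8 with AT2G17695 between them, and RPP4 with AT4G16870. The cpsf30-1 points (red) are lowest past EGY3, SDC and STY8 and highest past AT1G17860, BTF3 and AT2G17695, and past SCD1 they lie far below the others at transcript 1 and close under them at transcripts 2 and 3.

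The list of polyadenylation machinery genes held no member. Of its 27 genes, the windows of 16 could be tested in cpsf30-1 against WT, and 1 was called by edgeR. It was past AT5G60940, a cleavage stimulation factor gene, which held 0.763 and 0.539 CPM in WT and 4.58 and 4.94 in cpsf30-1 (7.49-fold, adjusted p = 0.0107), and 4 of the 6 fits that leave out 1 library called it, with adjusted p between 0.0363 and 0.0868. Windows past 12 antioxidant enzyme genes gave 3 calls, higher past APX1, CAT2 and FSD1. Those past 19 genes of the photosynthetic light reactions gave 7 calls, all higher in this fit. Over all tested windows 7.6% were called higher. Neither list held a member. By the reference the window past CAT2 holds a gene on the other strand and that past FSD1 a gene on the same strand. Whether the calls of these 2 lists hold without 1 library was not examined.

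Among the members themselves, edgeR called 114 of 119 lower in cpsf30-1 against WT, beside 3.02% of all tested windows, and 113 of 119 against nerd-1, beside 3.27%. The selection used both contrasts, which share the cpsf30-1 libraries, so these counts only restate it. Against WT the count was 42 without either cpsf30-1 replicate, and 58 and 60 without nerd-1 replicate 1 and 2. The median log2 fold changes of the members were -1.78 and -1.83, where those of all tested windows were -0.01 and 0.04. Members close to the limit were past AT2G25737, AT5G66070 and AT2G22400, where the higher cpsf30-1 library stood at 0.4997, 0.4997 and 0.499 times the lowest of the 4. Just outside it were AT4G02541, AT1G32600 and AT5G36680, at 0.502 times each.

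Between nerd-1 and WT the selection set no direction, but it used the values of both groups. Every WT and nerd-1 value had to reach 2 CPM, and both cpsf30-1 values had to lie at or below 0.5 times the lowest of them. This limits how low either group could fall, so the values below describe windows that passed that filter. In the members the ratio of mean CPM in nerd-1 to that in WT ran from 0.287 to 2.15 with a median of 0.989, beside 0.994 in all windows at the floor. edgeR called 0 of 119 members in either direction, where it called 7 of 14209 windows lower (0.0493%) and 1 higher (0.00704%). Among the 9175 windows at the floor that are not members, it called 6 lower (0.0654%) and 0 higher. At an unadjusted p under 0.05 there were 17 members (14.3%) against 9.92% of all tested windows. DESeq2 called 1 member, HTB9, a histone H2B gene named here for that call, with adjusted p = 0.0306, which is 0.840% of members beside 1.06% of all tested windows (151 of 14209). The ranges of the 2 groups did not overlap, with nerd-1 lower, in 27 members (22.7%) against 22.8% of windows at the floor, and with nerd-1 higher in 29 (24.4%) against 21.6%.

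The window past HTB9 covers 479 exon bases of EXLA1 on the other strand, and which gene its reads came from was not tested. It held 139 and 134 CPM in the WT libraries, 88.8 and 77.7 CPM in nerd-1 ones and 30.1 and 30.1 CPM in cpsf30-1 ones, so the groups did not overlap. Its log2 fold change in nerd-1 against WT was -0.74 (SE 0.138, adjusted p = 0.174, edgeR), and that of AT4G13572 was -1.27 (SE 0.238, adjusted p = 0.174). These were the smallest adjusted p-values among the members, while EGY3 stood at -0.56 (adjusted p = 0.318) and AT5G48480 at 0.50 (adjusted p = 0.357). The difference was most negative past PDF1.2b, at -1.86 (SE 0.555, adjusted p = 0.364), and it was -0.75 without WT replicate 2. AT2G39040 followed at -1.53 (adjusted p = 0.473).

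In the other direction were the B3 domain gene AT5G54067, with 3.22 and 2.32 CPM (WT), 5.99 and 5.94 CPM (nerd-1) and 1.00 and 1.04 CPM (cpsf30-1), and AT2G23700, with 3.22 and 2.32, 7.19 and 4.74, and 0.572 and 0.845 CPM in the same order. In both windows nerd-1 was highest and the groups did not overlap. Their log2 fold changes in nerd-1 against WT were 1.10 (adjusted p = 0.359, edgeR) and 1.09 (adjusted p = 0.406). A p-value above the threshold does not show that WT and nerd-1 had the same level in these windows.

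Members also lay next to each other. In 9 places the windows of 2 neighbouring genes were both members. Of these, BZIP53 with AT3G62422, AT4G36790 with AT4G36791 and GEX3 with RTFL18 had identical counts in every library. The windows of AT2G12461 with AT2G12462 and of AT2G26210 with AT2G26215 shared bases. Such pairs can hold the same reads, and no share over all windows at the floor was computed. The SAM domain gene AT2G12462 had 20.1 and 18.3 CPM in the WT libraries, 22.8 and 19.4 CPM in nerd-1 ones and 5.58 and 4.36 CPM in cpsf30-1 ones, and its neighbour AT2G12461 had 8.56 and 9.64, 11.2 and 13.5, and 2.65 and 2.80 CPM in the same order. Their windows shared 19 bases. AT5G55780, a C1 domain gene that converges on AT5G55790, had 8.05 and 13.0 CPM (WT), 6.81 and 6.16 CPM (nerd-1) and 1.29 and 0.910 CPM (cpsf30-1). HEN2, which encodes a helicase of the nuclear RNA exosome and was picked after its values were seen, lies beside the member AT2G07000, at 7.38 and 8.24, 6.37 and 6.62, and 2.29 and 2.60 CPM in WT, nerd-1 and cpsf30-1.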

How the data were processed

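The authors deposited 1 table of read counts per library, with 39087 transcripts and, per the file names, the reads in the 500 bases past each 3′ end. Per the submitters' processing notes, Bowtie2 2.3.4, TopHat2 2.0.7, Cufflinks 2.2.1 and Cuffdiff were used with build TAIR10. Which program counted the reads, whether it used strand and how it treated overlapping genes is not given in the sources used here, so reads of a gene and of one on the other strand could not be told apart. CPM used the total of each whole table. Differences were tested on the counts with edgeR 4.0.16 (R 4.3.3; limma 3.58.1), using TMM scaling, filterByExpr, the quasi-likelihood test, 1 window per gene, all 6 libraries and Benjamini-Hochberg adjustment over the 14209 windows kept; 16900 were too low. All 119 members passed this filter. Called means adjusted p under 0.05. DESeq2 1.42.0 was an alternative. The code was tested on simulated data. Positions, strands and sequences came from RefSeq TAIR10.1, by gene identifier (38527 of 39087 transcripts; 560 had none). Copies were sought with megablast (95% identity, 100 bases). Named genes were the 10 members with the lowest ratio, the 6 most abundant, the 6 most abundant isolated ones, 3 on each side of the limit, up to 8 with a separate isoform window, those in the longest stretches, 2 for nerd-1 in each direction and any in a gene list. The members and lists were chosen with earlier results of these data known.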

Additional observations from a re-analysis of the deposited data

How the results depend on the processing

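The number of members was 149 with a floor of 1 CPM, 83 with 5 CPM, 139 with totals of 1 row per gene, 109 with TMM totals, and 121 or 120 with another isoform per gene. Stricter limits on cpsf30-1, at or below 1/3 and 1/4 of the lowest of the 4 values, left 30 and 17, and leaving out 1 library gave 130 to 290. Members called lower in cpsf30-1 numbered 111 to 119 under DESeq2, its size factors, no TMM or no filter, 80 with only the 4 libraries compared, and 42 to 96 without 1 library. In nerd-1 against WT 1 was called by DESeq2, 5 with no filter on low counts, and 0 to 0 without 1 library. Separate isoform windows called lower were 1 with the 4 libraries, 0 without windows of identical counts (an alternative chosen after seeing the data), and 1 to 2 without 1 library. Neighbouring windows called lower were 1 with the 4 libraries, 18 with no filter, and 0 to 3 without 1 library. Those called higher, counted after seeing the data, were 2 with the 4 libraries and 1 to 2 without 1 library. The share of members with TGTA was 57.6% in the last 100 bases, beside 55.3% of all windows at the floor. The labels give groups the same replicate numbers without saying that a number marks a shared batch or day, so the libraries are taken to share only a number. The deviations of same-numbered libraries correlated at -0.00226 (WT with nerd-1), -0.31 (WT with cpsf30-1) and -0.00333 (nerd-1 with cpsf30-1); a negative value can come from crossed numbers. With a replicate block the counts were 68 members, 0 in nerd-1 against WT, 1 isoform window, and 0 neighbours lower and 2 higher. With the cpsf30-1 numbers exchanged, chosen after seeing the data, the block gave 117, 0, 2, and 12 lower and 9 higher. Over the 21 single windows with a printed test, the direction turned once, past PETE1 without WT replicate 1 (0.084 in place of -0.61, and -1.17 to 0.084 over the fits without 1 library, none of which called it); 238 results kept their side of the threshold, 29 lost a call and 5 gained one. The cause of these differences was not tested. Windows under 5 CPM rest on few counts, and 2 libraries a group leave 3 residual degrees of freedom.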
